A study of Mus musculus with 468 samples.

Results

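The 20 adipose libraries with the highest Acta1, 4.27% of the libraries in all, were compared with the libraries below the median Acta1, which make up 50% of the series. Acta1 encodes skeletal muscle alpha-actin, the actin of the thin filament in adult skeletal muscle fibers. Its level was taken in CPM, the counts of a gene per 1000000 counts of the library. The 20 were the libraries ranked first by that value, so Acta1 itself is a description here and carries no test. The libraries in between, 45.7% of the series, were used only where stated.

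Each library came from the adipose tissue, described in the methods of the study as the gonadal fat pad, of 1 Diversity Outbred mouse. Diversity Outbred mice descend from a cross of several inbred founder strains and differ in genotype from animal to animal. All mice received the same high-fat, high-sugar diet and no untreated or chow-fed group was analysed here. The 2 sets of libraries compared thus share tissue, stock and diet and were set apart by the Acta1 rank. They were not matched for sex or generation, and the study used females and males of several generations. The labels give no sex or age. The numbers of females and males the study gives for adipose equal those of libraries without and with counts of Y chromosome genes. The split by Y counts below is therefore likely a split by sex. Total counts ran from 51145229 to 132719654 (median 79522738) in the 20 libraries and from 46980943 to 137760410 (median 82678303) below the median. The defining adipocyte transcripts were present in all 20: Fabp4, the fatty acid carrier of adipocytes, measured 6758 to 11989 CPM there and its median below the Acta1 median was 9548 CPM.

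Skeletal muscle fibers contract through sarcomeres, in which myosin thick filaments pull on actin thin filaments, with nebulin along the thin filament and titin, the product of Ttn, spanning from the Z-disk to the M-band. Calcium released through the ryanodine receptor Ryr1 starts each contraction and the pump Atp2a1 returns it to the store. Fiber types are told apart by the adult myosin heavy chain they use: Myh7 in slow fibers, and Myh2, Myh1 and Myh4 in fast fibers of increasing speed. Smooth muscle, the muscle of vessel and duct walls, has actins and a myosin of its own (Acta2, Actg2 and Myh11) and no sarcomeres.

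Acta1 lies on chromosome 8 (GRCm38, 123891769 to 123894751, minus strand), where the annotation also places the predicted gene Gm20388 over it. None of the 1496 stretches of 100 bases in its transcripts occurs in a transcript of another gene, so reads of that length that match exactly fall on Acta1 alone. The 2 upstream regions below are shown because Acta1 chose the libraries and Myh4, the myosin of the fastest fibers, is used below to read the fiber type. Both are the 250 bases before the transcription start from RefSeq (GRCm38.p6), written 5′ to 3′ on the strand of the gene, with the CArG box, the motif bound by serum response factor, in capitals.
Acta1, chr8:123894776-123895025, minus strand: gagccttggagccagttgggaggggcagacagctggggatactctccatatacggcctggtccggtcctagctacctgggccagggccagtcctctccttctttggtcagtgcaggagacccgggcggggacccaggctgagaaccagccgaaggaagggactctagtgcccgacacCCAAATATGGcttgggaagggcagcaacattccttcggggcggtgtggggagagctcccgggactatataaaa
Myh4, chr11:67237562-67237811, plus strand: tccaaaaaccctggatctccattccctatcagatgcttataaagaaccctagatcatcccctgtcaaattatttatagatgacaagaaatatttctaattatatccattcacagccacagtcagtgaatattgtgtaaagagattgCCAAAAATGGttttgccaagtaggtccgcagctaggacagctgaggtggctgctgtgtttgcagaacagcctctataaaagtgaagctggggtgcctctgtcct
The CArG box started 73 bases before the transcription start of Acta1 and farther upstream in Myh4. It was present, on either strand, in 1.47% of all 32851 upstream regions of this length. The same search found this exact form in none of the upstream regions of Ckm, Ttn, Atp2a1, Tnnc2, Mybpc1, Smpx, Myh1, Myh2, Myh7, Acta2 and Cnn1. It took CC and GG with only A or T between them. Stretches with 1 other base, such as ccctatatgg upstream of Acta2, were not counted, so a site of that kind is not excluded. The E-box CANNTG, the motif of the myogenic factors, occurred 2 times upstream of Acta1 and 2 times upstream of Myh4, and 66.2% of all upstream regions hold at least 1.

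Acta1 was 1145 CPM in DO164, the highest library, and 249.4 CPM in DO137, the second. The other 18 members lay between 151.6 and 234.01 CPM. The last member, DO552, had 151.6 CPM and the first library left out, DO299, had 146.5 CPM, so the boundary of the group runs through a continuous range. The lowest library above the median had 26.99 CPM, and the libraries below it ran from 0.601 to 26.97 CPM. The plot of Acta1 by rank shows 1 library standing apart and no gap at rank 20.

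**Figure D1:**
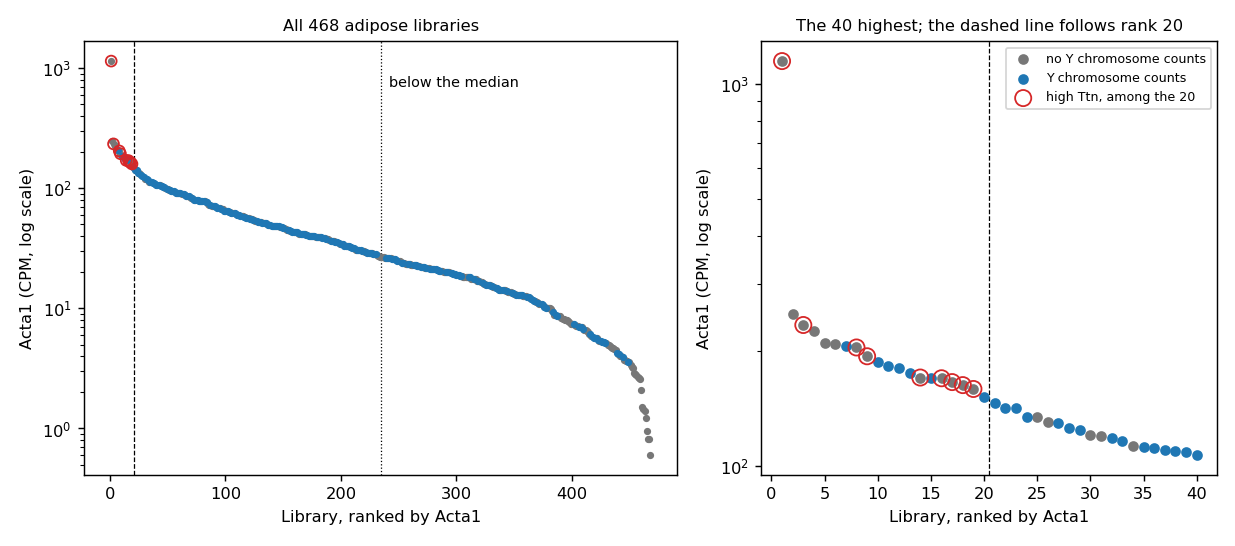
Acta1 level (CPM, log scale) of each library against its rank, for all libraries (left) and for the 40 highest (right). Blue points are libraries with counts of Y chromosome genes, gray points libraries without, and red rings mark the 9 of the 20 members with high Ttn. The dashed line follows rank 20 and the dotted line the median. DO164 lies at 1145 CPM and the other 19 members between 151.6 and 249.4 CPM.

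The data went against the description of all 20 libraries as holding skeletal muscle transcripts. Ttn, on chromosome 2 (76703980 to 76982547, minus strand), measured 73.3 to 1012 CPM (median 137.4) in 9 of the 20 libraries: DO164, DO326, DO121, DO487, DO126, DO234, DO348, DO352 and DO235. In the other 11 it measured 0.209 to 1.59 CPM (median 0.641), against a median of 0.504 CPM and a highest value of 33.5 CPM in the libraries below the median. Among the 20 members the 9 and the 11 therefore did not overlap, with no member between 1.59 and 73.3 CPM. The series as a whole has no such gap. Of the libraries in between, 15 exceeded 33.5 CPM, while 3 libraries outside the 20 reached 73.3 CPM or more. These 9 are called the Ttn-high libraries below. They were set apart after the values of Ttn were seen, so differences in muscle transcripts between them and the 11 are a description without a test.

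The 11 others fell into further kinds. Counts of the Y chromosome genes Ddx3y, Eif2s3y, Kdm5d and Uty were present in 7 of them (DO416, DO396, DO395, DO401, DO109, DO181 and DO552) and in none of the 9 Ttn-high libraries. The remaining 4 (DO137, DO489, DO343 and DO123) had no such counts. If Y counts mark sex, the 7 came from males, and the 9 and these 4 from females. Over the 20 members together Y counts were present in 35%, against 40.2% of the libraries below the median (Fisher's exact test, two-sided, p = 0.813). Acta1 itself was higher in libraries with Y counts across the series, with a median of 36.5 CPM (51.5% of the series) against 20.2 CPM (the other 48.5%), which is given as a description because Acta1 chose the groups. The number in the library code of the sample titles did not differ detectably and averaged 458.25 ± 133.8 (SD, n = 20) in the members and 468.03 ± 140.2 (SD) below the median (permutation test, two-sided, p = 0.764). For the mouse number the means were 296.75 ± 141.7 and 263.07 ± 152.5 (p = 0.343, permutation test).

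Counted over 6 lists of skeletal muscle genes (sarcomere structure, fast fibers, slow fibers, excitation-contraction coupling, energy supply and neuromuscular junction), 73 genes besides Acta1 were measured of 82 listed names including Acta1. In the Ttn-high libraries 27 to 61 of the 73 (median 47) lay above every library below the median, where only 0.25% to 0.85% of all 23179 genes did so. In the 7 libraries with Y counts 3 to 15 of the 73 did (median 13), with 0.677% to 3.17% of all genes. DO137 had 8 of the 73 above every library below the median, with 6.92% of all genes, the highest share of genes of any member. DO489, DO343 and DO123 had 0 of the 73, and 0.151% to 0.319% of all genes. In DO489 and DO123 no gene other than Acta1 was above all libraries below the median in both. The skeletal lists held 0.0790% to 1.39% of all counts in the Ttn-high libraries (median 0.142%), 0.0364% to 0.105% in the other 11 and 0.0113% to 0.0429% (median 0.0183%) below the median. The widest 95% Wilson interval of such a share among the 20 was 0.00473 percentage points, which covers counting error only. DO489 (0.0364%), DO123 (0.0386%) and DO396 (0.0412%) lay inside the range of the libraries below the median, although Acta1 itself is counted in these sums. Of these, DO396 has Y counts. DO343 (0.0432%) was just above the upper end of that range.

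Across the 20 members, edgeR's quasi-likelihood test with Benjamini-Hochberg adjustment called 62 of the 73 skeletal muscle genes higher and 0 lower, where 6.19% of all 23179 genes were called higher and 0.941% lower. The median log2 fold change was 3.26 over the 73 and -0.01 over all genes tested. DO164 set part of the size: without it 59 of the 73 were called higher, where 5.88% of all genes were, and their median log2 fold change was 2.58. The sarcomere median below was then 3.70 and that of the fast fiber genes 4.51, with 5.29 for Ttn, 7.03 for Myh4, 5.76 for Atp2a1, 5.78 for Myh7, 6.21 for Ckm and 5.80 for Tnnc2, all still called higher. The groups were chosen on Acta1, so these calls describe what accompanied Acta1 and are no independent evidence that muscle was present. Several members of the lists named from here on (Neb, Tcap, Ckm, Mb, Eno3, Mybpc1, Smpx, Pdlim3, Mypn, Xirp1, Xirp2, Lmod3, Klhl41, Ryr1, Cacna1s, Stac3, Trdn, Actn2, Chrna1, Musk) were picked after their values were seen. In a bulk sample fewer cells of a type and less RNA per cell cannot be told apart.

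**Figure D2:**
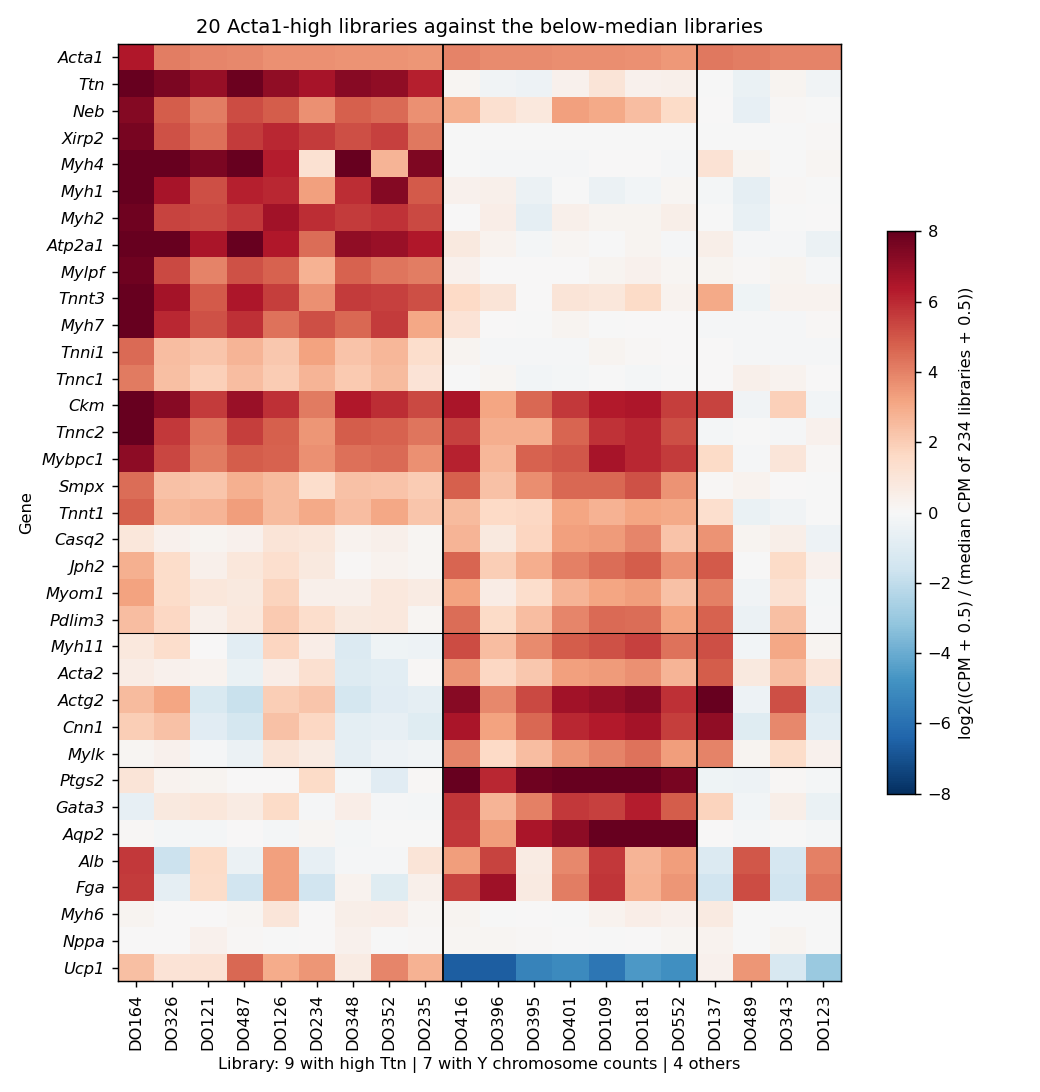
Levels of muscle genes in each of the 20 members, as the difference on the log2(CPM + 0.5) scale from the median of the libraries below the median Acta1. Each column is a library, with the 9 Ttn-high libraries on the left, the 7 with Y counts in the middle and the remaining 4 on the right. Genes from Ttn to Tnnc1 are raised in the left block, smooth muscle genes such as Myh11 in the middle block and in DO137 and DO343, and Ckm, Tnnc2 and Mybpc1 in both blocks.

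All 21 sarcomere genes besides Acta1 were called higher over the 20 members, where 6.19% of all genes were, with a median log2 fold change of 4.74. Ttn had a median of 1.21 CPM and a highest value of 1012 CPM over the 20, with a log2 fold change of 6.10 ± 0.32 (SE; edgeR quasi-likelihood, Benjamini-Hochberg adjusted p = 2.42e-47). Neb, which encodes nebulin, measured 27.1 to 367.9 CPM (median 59.97) in the Ttn-high libraries, 0.934 to 21.7 CPM in the other 11 and at most 14.7 CPM below the median. Tcap, the titin cap of the Z-disk, measured 3.63 to 57.7 CPM in the Ttn-high libraries and at most 0.224 CPM in the 11. For both genes the Ttn-high libraries lay wholly above the other 11.

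Of the 73 skeletal muscle genes, 24 were above every library below the median in all 9 Ttn-high libraries, where 0.129% of all genes were, and 19 of the 24 were above in none of the 11 others. Ttn is itself 1 of the 24. Besides the 24, 6 of the 30 genes with this pattern were in none of the lists: Tbx15, Apobec2, Abra, Klhl31, Mylk4 and Cmya5, named after their values were seen. Cmya5 encodes myospryn, a protein of the muscle costamere. Over the 20 members Cmya5 rose by 3.44 ± 0.17 (SE) on the log2 scale (edgeR quasi-likelihood, Benjamini-Hochberg adjusted p = 1.92e-50) and by 2.52 without DO164, with 0.685 to 218.9 CPM in the members and at most 6.70 CPM below the median.

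All 13 fast fiber genes were called higher over the 20 members, where 6.19% of all genes were, with a median log2 fold change of 5.14. Myh4 measured 2924 CPM in DO164, 430 in DO326, 341.1 in DO487, 141.8 in DO348, 97.7 in DO121, 91.3 in DO235, 41.1 in DO126, 3.01 in DO352 and 0.730 in DO234. The other 11 libraries had at most 0.688 CPM, and those below the median at most 12.2 CPM, so DO352 and DO234 lay above the 11 but within the range of the libraries below the median. Its log2 fold change was 8.73 ± 0.45 (SE; edgeR, Benjamini-Hochberg adjusted p = 9.59e-50). Atp2a1, the calcium pump of fast fibers, measured 18.3 to 1957 CPM in the Ttn-high libraries and at most 0.956 CPM in the 11, with a log2 fold change of 7.24 ± 0.31 (SE). Pvalb, the calcium buffer parvalbumin of the fastest fibers, reached 180 CPM in DO164 and 20.3 CPM in DO326 but 0.182 CPM in DO234, and Actn3, the fast fiber alpha-actinin, measured 1.39 CPM in DO234 against 311.9 CPM in DO164. DO234 thus held high Ttn with Myh4, Pvalb and Actn3 inside the range of the libraries below the median. Tnnt3, Tnni2 and Mylpf, the fast forms of troponin T, troponin I and the regulatory light chain, were above every library below the median in all 9 Ttn-high libraries and in none of the 11.

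Of the 10 slow fiber genes measured, 8 were called higher over the 20 members and 0 lower, with a median log2 fold change of 3.34. Of all genes, 6.19% were called higher and 0.941% lower. Myh7, the slow myosin, measured 3.95 to 130 CPM (median 18.7) in the Ttn-high libraries and at most 0.622 CPM in the other 11, with a highest value of 4.24 CPM below the median. Its log2 fold change was 6.56 ± 0.40 (SE). Tnni1 and Tnnc1, the slow forms of troponin I and troponin C, and Myoz2, a slow fiber Z-disk protein, were each above every library below the median in all 9 Ttn-high libraries and in none of the 11. Tnni1 measured 0.873 to 11.7 CPM there. Myh7b (log2 fold change 0.26 ± 0.25) and Myl6b (-0.03 ± 0.11) were not called.

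Of the 14 excitation-contraction coupling genes, 12 were called higher and 0 lower, and of the 8 energy supply genes 7 were called higher and 0 lower. Beside these and the junction genes below, 6.19% of all genes were called higher and 0.941% lower. Ryr1 measured 11.5 to 384.8 CPM in the Ttn-high libraries and at most 3.25 CPM in the 11. Cacna1s, the voltage sensor of the transverse tubule, measured 3.61 to 82.3 CPM against at most 0.820 CPM. Mb, which encodes the oxygen store myoglobin, measured 12.2 to 56.7 CPM against at most 1.05 CPM, yet reached 23.2 CPM in a library below the median. Trdn, a calcium store protein, and Jph1 were not called (log2 fold changes 0.93 ± 0.39 and 0.04 ± 0.12, edgeR quasi-likelihood with Benjamini-Hochberg adjusted p = 0.156 and 0.924). Of the 7 neuromuscular junction genes, 1 was called higher, the acetylcholine receptor subunit Chrna1 (0.140 to 1.07 CPM in the members, log2 fold change 0.81 ± 0.19), and 0 lower. Musk, the receptor kinase of the junction, measured 0.111 to 2.77 CPM in the members and up to 4.41 CPM below the median and was not called.

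Of the genes of muscle in other states, the developmental myosins Myh8 and Myh3 were both called higher over the members, with log2 fold changes of 2.61 ± 0.24 and 1.87 ± 0.38 (SE). Myh8 measured 8.16 CPM in DO126 and 7.93 CPM in DO121 and Myh3 3.82 CPM in DO121, while the highest library below the median had 4.32 CPM of Myh8 and 1.53 CPM of Myh3. Trim63 and Fbxo32, the ubiquitin ligases of muscle wasting, were called higher and the growth inhibitor Mstn was not. Fbxo32 ran from 19.95 to 140.1 CPM in the members and reached 176.3 CPM below the median, so the groups overlapped. No gene of the list of myogenic regulators and satellite cells was measured, and they were not analysed here. Among the 10 heart muscle genes 3 were called higher (6.19% of all genes were), which became 2 without DO164 and 1 without DO137 (5.2% of all genes). The defining heart transcripts Myh6 and Nppa stayed at or below 0.479 and 0.153 CPM in all 20 members. Other genes of this list reached more: Sbk2 20.2 CPM, Actc1 7.72 CPM, Tnnt2 5.86 CPM and Myl7 0.835 CPM. Each of these was above every library below the median in at least 1 member, and the other 6 genes in none. Tnnt2 and Myl7 were named after their values were seen.

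The fiber type was read from the shares of Myh1, Myh2, Myh4 and Myh7 in their summed counts. These 3 fast genes lie side by side on chromosome 11 (GRCm38, plus strand), Myh2 at 67171027 to 67197517, Myh1 at 67200052 to 67224575 and Myh4 at 67238029 to 67260446, with Myh7 on chromosome 14 (54970684 to 54994626, minus strand). Myh4 made up 81.7% of the sum in DO164, 69.7% in DO326, 66.95% in DO487, 53.8% in DO235, 51.9% in DO348 and 49.8% in DO121. In the other 3 Ttn-high libraries it made up 17.5% (DO126), 1.10% (DO352) and 0.807% (DO234). Thus Myh4 led in 6 of the 9, Myh1 led in DO352 with 69.96%, and Myh2 led in DO126 with 45.97% and in DO234 with 66.7%. The slow Myh7 ran from 2.33% to 20.6% (median 5.62%), its highest share being in DO234.

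The medians over the 9 were 51.9% for Myh4, 20.6% for Myh1, 19.9% for Myh2 and 5.62% for Myh7. They rest on 6978 to 337092 myosin counts per library, and the widest 95% Wilson interval of the Myh4 share was 1.64 percentage points, far below the spread between the libraries. The other 11 members had 36 to 200 myosin counts (0.467 to 2.14 CPM, against a median of 1.36 CPM and a range of 0.0845 to 51.98 CPM below the median), with Wilson intervals of up to 27.3 points, so no fiber type can be read there. Over all 20 the median Myh4 share was 5.02% (SD 28.5). Of the stretches of 100 bases in the transcripts of these genes, 8.99% for Myh1, 7.80% for Myh2, 3.85% for Myh4 and 7.71% for Myh7 also occur in another gene. Reads of that length that match such a stretch exactly cannot be assigned by sequence alone. How far counts were divided between the genes was not tested. Myh7 shares its stretches with Myh6 of the heart.

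**Figure D3:**
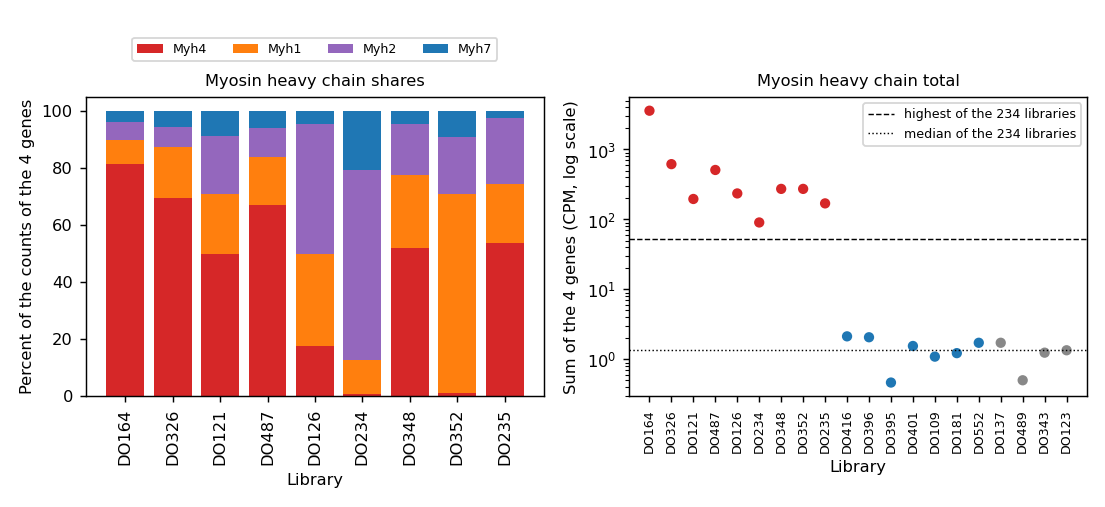
Adult myosin heavy chains in the 20 members. Bars (left) give the percent of the summed Myh1, Myh2, Myh4 and Myh7 counts in each of the 9 Ttn-high libraries, and points (right) the summed level of the 4 genes in CPM on a log scale in all 20, red for Ttn-high libraries, blue for those with Y counts and gray for the rest. Myh4 leads in 6 of the 9 Ttn-high libraries, Myh1 in DO352 and Myh2 in DO126 and DO234. The other 11 members have at most 2.14 CPM of these myosins.

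A second set of genes from the skeletal muscle lists was high in part of the other libraries. Standing on these lists does not show that their counts came from skeletal muscle, and their source was not tested. Of the 73 genes, 11 were above every library below the median in 5 or more of the 11 members without high Ttn, where 1.23% of all genes were: Myom1, Mybpc1, Smpx, Pdlim3, Tnnc2, Casq1, Tnnt1, Casq2, Jph2, Ckm and Pygm, named after their values were seen. Ckm, the muscle creatine kinase, measured 5.04 to 56.8 CPM in the 7 libraries with Y counts and 25.9 CPM in DO137, beside 10.9 to 668.1 CPM in the Ttn-high libraries and at most 7.56 CPM below the median. DO489, DO343 and DO123 had 0.0139, 1.89 and 0.0342 CPM. Ckm was therefore above every library below the median in 16 of the 20 members, and its log2 fold change was 7.19 ± 0.33 (SE). Tnnc2, the fast form of troponin C, had 4.08 to 40.6 CPM in the 7 with Y counts but 0.0542 CPM in DO137. It was likewise above in 16 of the 20, with a log2 fold change of 6.52 ± 0.27 (SE).

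Within this set some genes were higher in the 11 than in the Ttn-high libraries and some lower. Pygm, the glycogen phosphorylase of muscle, had medians of 12.7 CPM in the 11 and 29.4 CPM in the Ttn-high libraries, and Tnnt1, the slow form of troponin T, 2.39 and 5.72 CPM. Mybpc1, the slow fiber myosin binding protein C, measured 6.59 to 109.5 CPM in the 7 and 13.7 to 163.4 CPM in the Ttn-high libraries. Smpx, a small protein of striated muscle, measured 2.10 to 16.95 CPM in the 7 and 0.843 to 10.8 CPM in the Ttn-high libraries. Casq2, the calsequestrin of slow fibers and heart, measured 2.60 to 26.7 CPM in the 7 and 21.6 CPM in DO137, while all 9 Ttn-high libraries stayed at or below 3.19 CPM and within the range below the median. Jph2, a junctophilin that joins the calcium store to the surface membrane, measured 18.5 to 138.7 CPM in the 7 and 147.3 CPM in DO137, against 4.71 to 34.7 CPM in the Ttn-high libraries. Myom1, the M-band protein myomesin, reached 188.7 CPM in DO137. In these libraries Xirp2, a protein of the cell ends of muscle fibers, was listed at 0 in all 7 with Y counts.

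Smooth muscle genes were high in most of the same libraries. The 12 smooth muscle genes summed to at most 1410 CPM (median 743) in the Ttn-high libraries, 2335 to 12738 CPM (median 8309) in the 7 with Y counts, 16563 CPM in DO137 and 3563 CPM in DO343, against 171.8 to 3212 CPM (median 809) below the median. DO489 and DO123 had 670 and 924 CPM. None of the 12 was above every library below the median in any Ttn-high library, 11 were in DO137, and 0 to 11 in the 7 with Y counts. Myh11, the smooth muscle myosin on chromosome 16 (14194535 to 14291372, minus strand), measured 48.3 to 342.5 CPM in the Ttn-high libraries, 565.07 to 4516 CPM in the 7, 3658 CPM in DO137 and 888 CPM in DO343, with a highest value of 791 CPM below the median. Acta2, the smooth muscle actin, measured 69.3 to 341.2 CPM in the Ttn-high libraries, 442.3 to 1803 CPM in the 7 and 4037 CPM in DO137.

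Over the 20 members 11 of the 12 smooth muscle genes were called higher and 0 lower (edgeR quasi-likelihood, 6.19% of all genes called higher), with a median log2 fold change of 2.15. Myh11 rose by 3.08 ± 0.17 and Acta2 by 2.10 ± 0.16 (SE) on the log2 scale, and Synpo2 was not called. With the 11 libraries of low Ttn left out, 0 of the 12 were called, while 60 of the 73 skeletal muscle genes still were, with 0.846% of all genes called higher. This alternative was chosen after seeing the data.

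Libraries with and without Y counts were therefore fitted apart, a split also added after seeing the values. Among libraries without Y counts (13 members) 62 of the 73 skeletal muscle genes and 11 of the 12 smooth muscle genes were called higher, against 1.81% of all genes. DO137 decided the smooth muscle part: without it 59 of the 73 and 0 of the 12 were called, against 0.906% of all genes. Among libraries with Y counts (7 members) 17 of the 73 were called higher and 2 lower, and 11 of the 12 smooth muscle genes higher, against 6.92% of all genes called higher and 4.26% lower. The 2 lower were Xirp2 and Lmod3. There Tnnc2 rose by 6.54, Ckm by 7.14, Mybpc1 by 5.97 and Smpx by 7.22 on the log2 scale, whereas Ttn changed by 0.08 and Atp2a1 by -0.01, neither called.

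The difference between the 2 contrasts was itself tested as an interaction of the Acta1 group with Y counts, by edgeR's quasi-likelihood test. Of the 73 skeletal muscle genes 41 had a lower fold change in libraries with Y counts and 3 a higher one, where 0.958% and 2.97% of all genes did. Of the 12 smooth muscle genes 6 had a higher fold change with Y counts and 0 a lower one. Ttn differed by -6.12 ± 1.20 (SE), Myh4 by -10.79 and Myh7 by -5.33 on the log2 scale, Jph2 by 1.67 and Myh11 by 2.46. The plot of fold changes by list shows the fast fiber list called whole without Y counts and in 4 of its 13 genes with them.

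**Figure D4:**
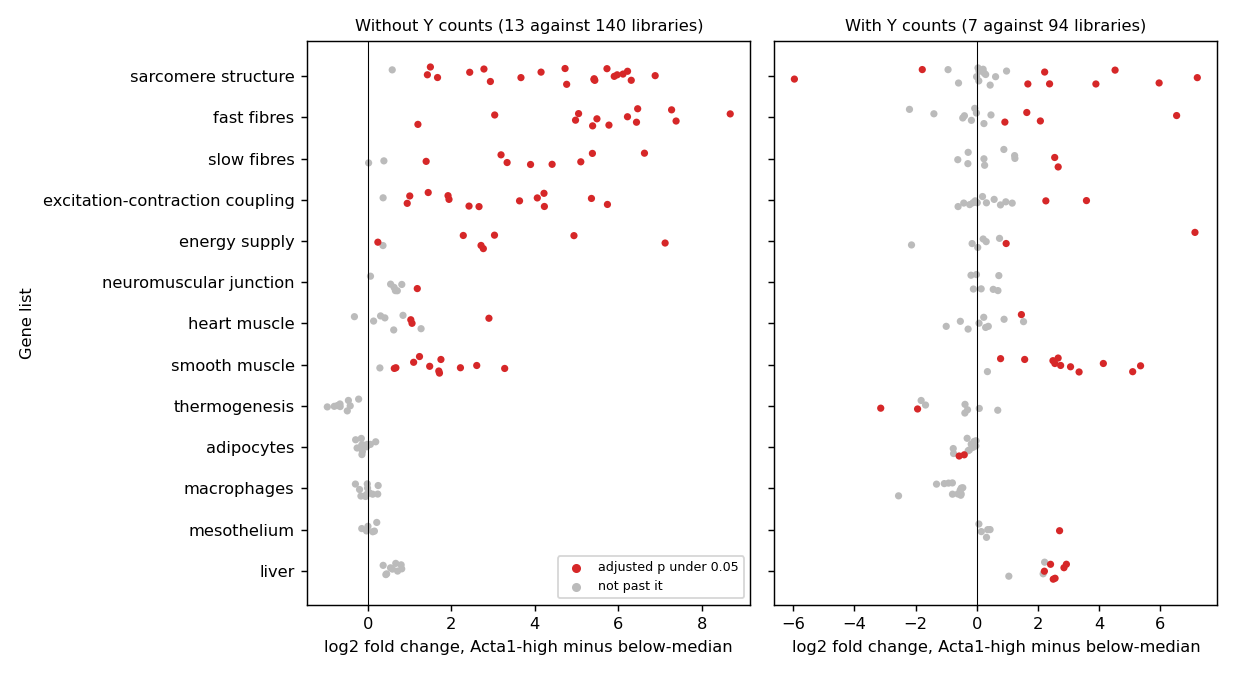
Log2 fold change of the 20 members over the libraries below the median Acta1, with a point for each gene of a list, fitted separately for libraries without (left) and with (right) Y chromosome counts. Red points passed an adjusted p of 0.05 and gray points did not. Of the 73 skeletal muscle genes 62 are called higher on the left and 17 on the right, and of the 12 smooth muscle genes 11 in each, with 0 of the 12 on the left once DO137 is left out.

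Outside the lists, 9 of the 10 genes with the smallest p among those higher were led by the libraries with Y counts or by DO137. Ptgs2, the inducible cyclooxygenase, measured 146.9 to 1646 CPM in the 7 libraries with Y counts and 0.742 to 6.14 CPM in the other 13 members, with a median of 1.78 and a highest value of 150 CPM below the median. Aqp2, the vasopressin-regulated water channel, measured 5.09 to 1018 CPM in the 7 and at most 0.117 CPM in the 13, with a highest value of 20.1 CPM below the median. Over all 20 Ptgs2 rose by 6.34 ± 0.26 and Aqp2 by 8.14 ± 0.39 (SE) on the log2 scale, and neither was called in libraries without Y counts. Gata3, P2rx1, Prdm10 and Pde1c were also called in libraries with Y counts and not in those without. Tpm2, the beta-tropomyosin of skeletal and smooth muscle, measured 1213 CPM in DO137, 111.7 to 852 CPM in the 7 and 39.4 to 375.6 CPM in the Ttn-high libraries, with 214.3 CPM as the highest below the median. Ank1, an ankyrin with a small muscle form, reached 203.2 CPM in DO181 and 25.4 CPM in DO164. Cmya5 was the only 1 of these 10 led by the Ttn-high libraries.

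The 10 genes with the smallest p among those lower were Piezo1, Plekhm1, Scfd2, Tank, Rragc, Rtf2, Ptpa, Svs5, Tm9sf4 and Gak. For 9 of them the log2 fold change lay between -0.22 (Tank) and -0.11 (Gak). Except for Rragc, every member lay within the range of the libraries below the median for these genes. The lowest member had 88.3 CPM of Rragc, against 93.8 CPM as the lowest value below the median. These 9 lost their call when libraries were scaled by total count alone. Svs5, a seminal vesicle secretory protein, had a log2 fold change of -8.42 ± 2.05, which rests on libraries below the median that reached 6112 CPM, beside a median of 0.00565 CPM there.

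Markers of brown fat, tendon, nerve and liver were read beside the muscle genes in the same libraries. Ucp1, the uncoupling protein of brown and beige fat, measured 94.98 to 1419 CPM (median 410) in the Ttn-high libraries, 0.108 to 2.00 CPM in the 7 with Y counts and 59.2 CPM as the median below the Acta1 median, where it ran from 0.149 to 3308 CPM. The Ttn-high libraries all lack Y counts, whereas those below the median mix libraries with and without them. Ucp1 below the median was not split by Y counts, so a link with Ttn is not separated here from one with Y counts. Over the 20 Ucp1 was not called (log2 fold change -0.69 ± 0.75, edgeR adjusted p = 0.708), and none of the 9 thermogenic genes was. A fit that held Ucp1 as a covariate called 63 of the 73 skeletal muscle genes higher, where 5.99% of all genes were. Over the 20, 2 of the 8 tendon genes (Mkx and Cilp2), 3 of the 9 nerve genes and 2 of the 9 liver genes (Alb and Fga) were called higher. In these lists 0 were lower, 6.19% of all genes were called higher, and the 2 liver calls were lost without DO164. With Y counts 3 tendon, 4 nerve and 6 liver genes were called higher, where 6.92% of all genes were. Among libraries without Y counts 1 tendon gene and 0 nerve or liver genes were, where 1.81% of all genes were. That tendon call was lost when DO137 was left out as well, where 0.906% of all genes were called higher. Of the 11 members without high Ttn, Mkx was above every library below the median in 5, Cilp2 in 6, and the nerve genes Sox10 and Prx in 3 each, named after their values were seen. None of these tendon, nerve and liver genes was above every library below the median in a Ttn-high library. The 9 liver genes summed to 8.94 to 1625 CPM in the Ttn-high libraries, highest in DO164, to 44.5 to 1727 CPM in the 7 with Y counts, where 6 of the 9 were called higher, and to 1062 and 547.5 CPM in DO489 and DO123, while 9 and 17 of the libraries below the median were at or above these last values. None of the 13 adipocyte genes, 13 mitochondrial DNA genes, 9 progenitor genes or 8 endothelial genes was called in either direction over the 20. The parts of these cell types in the muscle results were not tested.

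To compare genes, the level of each in a library, less its median in the libraries below the median Acta1, was divided by the same excess of Acta1, which gives the counts that came with 100 counts of Acta1. In the Ttn-high libraries Ttn came to 84.9% of Acta1 (median, range 49.8% to 124.4%), Atp2a1 to 66.7% (11.4% to 172.9%), Myh4 to 62.4% (0.449% to 258.4%), Myh1 to 45.5% (6.44% to 127.1%), Neb to 32.4% (16.6% to 44.9%), Myh2 to 28.1% (18.8% to 68.3%), Ckm to 24.6% (6.88% to 59.03%) and Myh7 to 11.5% (2.68% to 16.8%). Long transcripts yield more counts, so the levels were also set per kilobase of exon. Per kilobase Acta1 was the most abundant of the genes, followed by Atp2a1 at 29.4% of it (5.05% to 76.4%), Tnnt3 at 23.8%, Mylpf at 21.2%, Tnnc2 at 20.2%, Myh4 at 15.9%, Ckm at 12.99% and Myl1, the fast essential light chain, at 12.9%. The ranges of all 7 over the 9 libraries overlapped. Within the same library Tnnt3 was above Mylpf in all 9, Atp2a1 above Tnnt3 in 7, Myh4 above Ckm in 6 and Ckm above Myl1 in 6. Mylpf was above Tnnc2 in 1 and Tnnc2 above Myh4 in 3, so these neighbors stood in the opposite order in most libraries. The giant transcripts fell to 1.12% for Ttn (0.654% to 1.64%) and 1.87% for Neb (0.960% to 2.60%). On this scale Myh1 ran from 1.56% to 30.7%, and the medians of Myh2 and Myh7 were 6.06% and 2.05%.

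**Figure D5:**
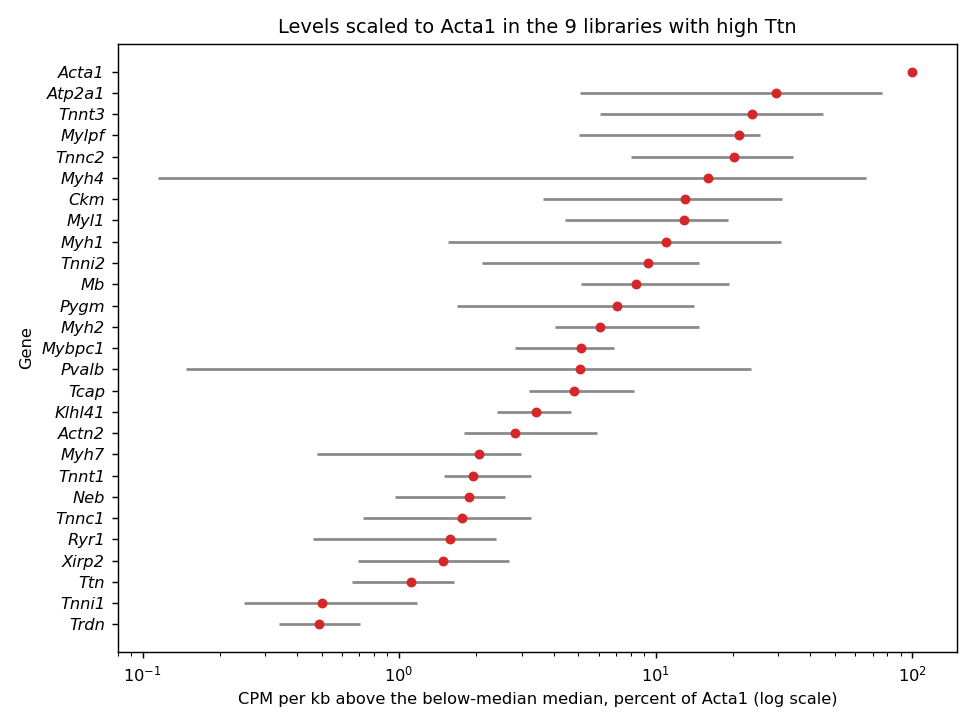
Levels per kilobase of exon above the median of the libraries below the median Acta1, in percent of the same excess of Acta1 (log scale), in the 9 Ttn-high libraries. Points are medians and lines run from the lowest to the highest library. Of the genes drawn, Myh4 and Pvalb span the widest ranges, and Trdn and Tnni1 lie lowest.

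The ratio to Acta1 varied widely between the 9 libraries for some genes and little for others. The standard deviation of its log2 value was 3.16 for Myh4, 2.10 for Pvalb and 2.07 for Actn3, all genes of the fastest fibers. It was 0.313 for Trdn, 0.383 for Srl, 0.408 for Ttn and 0.586 for Myh2. The median over the 61 genes above the median level in all 9 libraries was 0.765. Taken relative to Ttn in place of Acta1 the median was 0.638, and 49 of 60 genes varied less, which is a description because Ttn set these 9 libraries apart. In the other 11 members the same ratio gave 40.6% for Jph2, 35.4% for Myom1, 33.5% for Pdlim3, 16.7% for Mybpc1 and 10.9% for Ckm (medians), against 2.23%, 5.47%, 2.73%, 15.1% and 24.6% in the Ttn-high libraries. Over the 11 the ratio ran from -0.0533% to 85.3% for Jph2, -0.997% to 75.04% for Myom1 and -0.741% to 75.8% for Pdlim3. For Mybpc1 the range was -0.0373% to 67.1% and for Ckm -0.0558% to 35.1%. For Ttn and Atp2a1 the median ratio was 0.0708% and -0.0118% in the 11.

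Acta1 did not rank the libraries as other muscle genes did. Of the 20 libraries with the highest Ttn, 9 were among the members and 11 among the libraries in between, down to Acta1 rank 97. For Myh4 these were 7 and 13 and for Atp2a1 8 and 12, reaching further down the Acta1 ranks than for Ttn. For the smooth muscle genes Myh11, Acta2 and Actg2, 6, 5 and 5 of the 20 highest were members. None of the 20 highest for any of these 6 genes was below the median Acta1. Ttn exceeded every library below the median in 15 of the libraries in between, and Myh11 did in 47 of them. At or above 73.3 CPM of Ttn, the lowest of the 9 Ttn-high libraries, were 12 libraries in all, 3 of them outside the 20.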

How the data were processed

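Adipose RNA was sequenced from 468 mice, 1 library each: 20 with the highest Acta1, 234 below its median and 214 in between. Per the study's methods, the authors aligned the reads as single ends to a transcriptome of the founder strains and the EMASE and GBRS software estimated the expected counts per gene that were deposited. The authors dropped transcripts with few reads, so genes missing from the table were not analysed here. The deposited log2 values are the variance stabilizing transformation of DESeq2, whose version is not given in the sources used here. GRCm38 is the genome build.

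Expected counts were rounded and tested with edgeR 4.0.16 (R 4.3.3; TMM scaling, quasi-likelihood test, Benjamini-Hochberg adjustment, threshold 0.05) over 23179 genes other than Acta1, with no filter. CPM used the column total. Y counts mean any count of Ddx3y, Eif2s3y, Kdm5d or Uty. Exon lengths came from GENCODE annotation matched by gene ID (23180 of 23180 found). Of the counts, 66.8% were whole to within 1e-06. Alternatives used DESeq2 1.42.0, limma 3.58.1 (prior count 2) and other sets of libraries. The test was tried on simulated counts with known changes. Permutation tests used scipy 1.17.1. p-values set a difference against the spread between mice. The SE printed with a log2 fold change belongs to the fitted contrast and is not the spread among the members. For genes such as Ttn and Myh4 the members mixed high and low libraries. A small SE or p-value there does not mean that every member was raised.

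The members, gene lists and tests were chosen with earlier results of these data known. Named genes were all fast and slow fiber genes and developmental myosins, the 3 most abundant members of every other list, Myh6, Nppa, Actc1, Acta2, Ucp1, Pax7 and Sln where measured, and the 10 genes with the smallest p in each direction outside the lists with a mean of at least 1 CPM. Other genes are named as chosen after their values were seen. Some genes that this rule or the lists hold are not reported here.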

Additional observations from a re-analysis of the deposited data

Results flagged for a closer look

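Between libraries with and without Y chromosome counts, the contrast of the Acta1-high members with the libraries below the median differed for 910 genes by edgeR's interaction test, 3.93% of all genes tested. All differences here are log2 fold changes with Y counts minus without. Among the named genes, the fast fiber genes Myh4 (-10.79), Pvalb (-8.62), Atp2a1 (-7.35), Tnni2 (-6.58), Myh1 (-5.82), Mylpf (-5.22), Myh2 (-5.09), Mybpc2 (-4.82), Tnnt3 (-4.55), Actn3 (-4.48) and Myl1 (-1.58) had lower values with Y counts. So did the slow fiber genes Myh7 (-5.33), Tnni1 (-5.09), Tnnc1 (-4.49) and Myoz2 (-4.20), the sarcomere gene Ttn (-6.12), the glycogen phosphorylase gene Pygm (-1.72) and the junctophilin gene Jph1 (-0.77). Jph2 (1.67), Casq2 (1.29) and the smooth muscle myosin Myh11 (2.46) had higher values with Y counts. All 9 libraries with high Ttn lack Y counts, and the other 4 members without Y counts have low Ttn.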

How the results depend on the processing

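With Y counts absent in all Ttn-high libraries, the choice of libraries moved the results most. Of the 23179 genes, 7.13% were called, which became 3.15% with the 10 highest libraries, 1.84% without and 11.2% with Y counts, 0.902% without the 11 libraries of low Ttn and 0.919% without Y counts and without DO137. Skeletal muscle genes called higher fell from 62 to 17 with Y counts. Calls in the other lists moved from 30 to 18 without Y counts, 5 without the low-Ttn libraries and 6 without Y counts and without DO137. Without the low-Ttn libraries the Myh4 share rose from 5.02% to 51.9%, and the median Acta1-scaled level from 0.401% to 2.79%. The latter was 0.260% without DO164 and 0.189% with the 10 highest libraries, and the Myh4 share 31.7% with the 10 highest and 13.4% on counts less the median below. Splits by Y counts, Ttn and DO137 were chosen after seeing the data. Scaling by total counts alone gave 8.4% of genes higher and 0.263% lower, against 6.19% and 0.941%. Over 59 named genes called, 1108 values under alternatives gave 964 unchanged calls and 22 reversals, the rest being lost calls. A reversal here is a change of sign only, and none of the 22 passed the threshold in its alternative. Without Y counts Aqp2 (-0.28), Pde1c (-0.56) and Rnase10 (0.35) reversed, and without DO137 as well Aqp2 (-0.33), Pde1c (-0.52), Rnase10 (0.022) and Prdm10 (-0.0046). Without the low-Ttn libraries Aqp2 (-2.80), Pde1c (-0.66) and Ptgs2 (-0.25) did. With Y counts Atp2a1 (-0.0083), Cmya5 (-0.55), Myh1 (-0.46), Myh2 (-0.064), Myh3 (-0.45), Myh4 (-2.20), Myl1 (-0.40), Pvalb (-1.40), Sbk2 (-0.28), Tnnc1 (-0.62) and Tnni2 (-0.17) did, and Rnase10 (0.19) with DESeq2. Their cause was not tested. No paired analysis was possible because the labels give a single group of mice with no shared replicate numbers.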
